A study of Mus musculus with 8 samples.

Results

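Sertoli cells are the somatic nurse cells of the seminiferous tubule, and transcripts known from them were measured in libraries of sorted germ cells. The 10 genes described are *Clu*, *Rhox8*, *Fshr*, *Dhh*, *Amhr2*, *Cldn11*, *Cst12*, *Cst9*, *Defb19* and *Shbg*, of 5736 genes in the table, and all 10 were measured in all 8 libraries. They were chosen by their FPKM levels in these same 8 libraries, where they were seen to move together, so their levels and fold differences are a description, with no p for any of them. Counts of the 10 that a fit across all genes called are printed only beside the share or number of all genes called, and nothing is read from them. Counts at an unadjusted p below 0.05, for the 10 and for other gene lists, have no such share beside them. Nothing is read from those either. Bulk RNA-seq was made from EGFP+ germ cells sorted by fluorescence from testes of CD1:Uchl1-eGFP mice, in which the *Uchl1* promoter drives EGFP. All mice were synchronized with the oral retinoic acid (RA) synthesis inhibitor bis-(dichloroacetyl)-diamine at 100 µg per g of body weight from postnatal day (P)1. RA was then given as a single subcutaneous dose on P11 (10 µl at 10 µg/µl), and the labels list this treatment for every library, although the design places undifferentiated spermatogonia in P11 testes before RA. The groups were undifferentiated spermatogonia (Aal, 2 libraries), type A1 differentiating spermatogonia, found the day after RA (3 libraries), and type A3 differentiating spermatogonia, found later (3 libraries). The protocol pools testes of several males for each cell preparation, and ages at collection are not given for single libraries.

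Sertoli cells surround germ cells from spermatogonium to spermatid, form the blood-testis barrier through tight junctions, and answer to follicle-stimulating hormone (FSH) and androgens. They secrete much of the protein of the tubule fluid, and their own ligands act on germ cells and on Leydig and peritubular cells outside the tubule. Within the testis the FSH receptor is used as a marker of Sertoli cells.

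The germ cell label held in all 8 libraries. *Uchl1*, the gene whose promoter drives the sorted EGFP, lay between 4048 FPKM in A1-3 and 7270 FPKM in A1-1, and *Dazl*, a germ cell RNA-binding protein, lay between 303 FPKM in Aal-2 and 437 FPKM in A3-2. FPKM is a read count scaled to gene length and to library size, so levels of different genes can be compared. Library totals, recovered from the steps between FPKM values, ran from 18276164 reads in A1-3 to 27316451 reads in A1-2. One library stood apart for the genes described here. A1-3 had 488.6 FPKM over the 10 genes, against 67.1 in A1-1 and 69.8 in A1-2, and the counts of calls in comparisons with the A1 group are therefore given with and without it.

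The summed level of the 10 Sertoli transcripts separated the libraries into a low and a high set that did not follow stage alone. It was 49.5 FPKM in Aal-1 and 29.6 in Aal-2. Both remaining A1 libraries lay just above these, and A1-3 lay above all 3 A3 libraries, which had 467.5 FPKM in A3-1, 349.3 in A3-2 and 249.7 in A3-3. In recovered reads the 10 genes had 1128 reads in Aal-2, 1999 in A1-1, 11701 in A1-3 and 8335 in A3-3. Set against *Uchl1*, the sum was 0.566% of its FPKM in Aal-2, 1.38% in A1-2, 12.1% in A1-3 and 8.39% in A3-1. In these bulk samples, fewer Sertoli cells and less RNA per Sertoli cell cannot be told apart. Depth moved with the sum within the A3 group: A3-1 was the shallowest at 18944949 reads and A3-3 the deepest at 25252713, and the highest sum of all was in the shallowest library, A1-3. The part of depth in these levels was not tested.

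**Figure D1:**
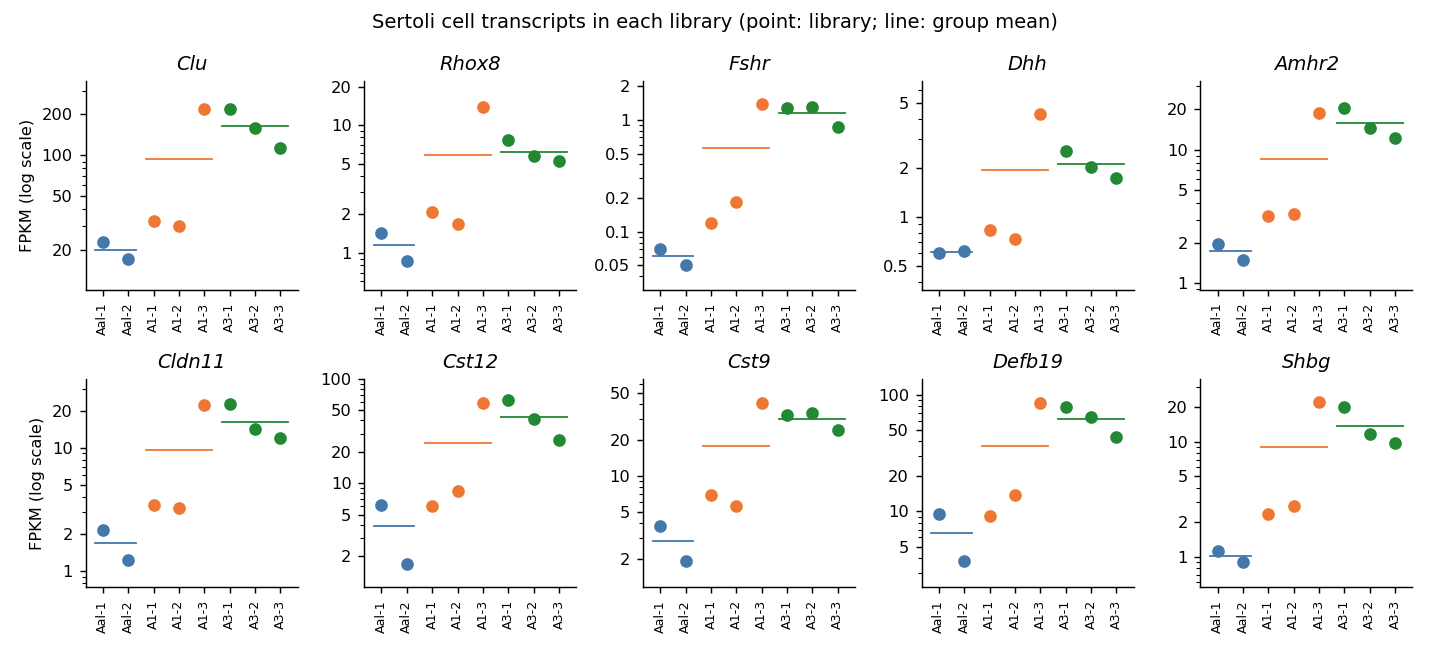
Level of each of the 10 Sertoli transcripts in the 8 libraries, in FPKM on a log scale that differs between panels; each point is a library and each line the mean of its group (Aal 2, A1 3 and A3 3 libraries). A1-3 sits with or above the A3 libraries in every panel, while A1-1 and A1-2 lie below all A3 libraries.

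The order of the libraries was nearly the same for every gene. A3-3 was the fourth highest library for 10 of 10 genes. A1-3 was the highest for 7 genes and the second highest for 3, and A3-1 was the highest for those 3, which were *Amhr2*, *Cldn11* and *Cst12*. At the other end, Aal-2 was the lowest library for 9 of 10 genes, and Aal-1 was the lowest for *Dhh*.

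Among the receptors, *Fshr* encodes the FSH receptor, through which the pituitary acts on Sertoli cells. It lies at chr17:89384292-89600015 (mm9) and was the lowest of the 10 genes in every library. Its levels were 0.0702 and 0.0506 FPKM in Aal, 0.119, 0.186 and 1.39 in A1, and 1.27, 1.31 and 0.873 in A3, in replicate order. These rest on few reads: 4 and 3 in Aal, 6, 12 and 60 in A1, and 57, 69 and 52 in A3. The exact 95% counting interval reached at most 0.325 FPKM in the low libraries (A1-2) and started at 0.652 FPKM or higher in A1-3 and A3 (A3-3), so the 2 sets did not overlap, whereas the intervals of the low libraries did overlap one another.

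*Amhr2* encodes the type II receptor for anti-Müllerian hormone, found on Sertoli and Leydig cells, and lies at chr15:102275798-102285061 (mm9). It was at 1.98 and 1.49 FPKM in Aal, at 3.17, 3.29 and 18.9 in A1, and at 20.4, 14.5 and 12.3 in A3. A1-3 thus fell inside the A3 range, and the ratio of A1-1 to A1-2 was 0.965.

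The ligand *Dhh* encodes desert hedgehog, the Sertoli signal to Leydig and peritubular myoid cells, and lies at chr15:98723462-98728971 (mm9). It was at 0.596 and 0.620 FPKM in Aal, at 0.828, 0.725 and 4.25 in A1, and at 2.54, 2.03 and 1.72 in A3. Its A1-3 level was above all A3 libraries, and its 2 Aal libraries were the closest of the 10 genes, with a ratio of 0.961 (95% interval 0.667 to 1.38). The gene length implied by the FPKM steps was 4239 bases, longer than the 2363 bases of exon in the GENCODE M1 annotation of mm9, so the gene model behind the *Dhh* values was not the one used here for its position.

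The homeobox gene *Rhox8*, X-linked and expressed in Sertoli cells, lies at chrX:35227957-35232121 (mm9). It was at 1.44 and 0.859 FPKM in Aal, at 2.10, 1.67 and 13.8 in A1, and at 7.66, 5.75 and 5.22 in A3. As with *Dhh*, A1-3 stood above the whole A3 range. Of its transcript words of 75 bases, the read length, 2.70% also occur in transcripts of other genes. For the other 9 genes none do.

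Of the secreted products, *Clu* was the most abundant of the 10 genes in every library. It encodes clusterin, a major glycoprotein of Sertoli cell secretion that other somatic cells make too, and lies at chr14:66587320-66600385 (mm9). It was at 22.8 and 17.1 FPKM in Aal, at 32.9, 30.1 and 220.2 in A1, and at 219.6, 159.7 and 114.0 in A3. The length implied by its FPKM steps was 1811 bases, against 3438 bases of exon in GENCODE M1, and over the longer length its FPKM and its share of the sum would be lower in every library. Its reads, from 777 in Aal-2 to 7534 in A3-1, make it the most precise of the 10, with a counting error of 3.59% in Aal-2 and 1.15% in A3-1. A1-3 and A3-1 differed by less than that error, with a ratio of 1.00 (95% interval 0.971 to 1.04).

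*Shbg*, which in rodent Sertoli cells gives the androgen-binding protein of the tubule, lies at chr11:69428306-69431407 (mm9). It was at 1.12 and 0.906 FPKM in Aal, at 2.36, 2.76 and 22.1 in A1, and at 20.1, 11.7 and 9.68 in A3. The A1 libraries apart from A1-3 were both above both Aal libraries.

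*Cst9* and *Cst12* are neighboring genes of the cystatin family of protease inhibitors, at chr2:148660883-148664474 and chr2:148615097-148619282 (mm9). *Cst9* was at 3.74 and 1.92 FPKM in Aal, at 6.96, 5.603 and 41.2 in A1, and at 32.6, 34.0 and 24.4 in A3. *Cst12* was at 6.14 and 1.68 FPKM in Aal, at 6.09, 8.38 and 59.2 in A1, and at 62.8, 41.5 and 26.2 in A3. The Aal libraries of *Cst12* differed 3.66-fold (95% interval 2.28 to 6.10), the widest gap within Aal, so that Aal-1 lay above A1-1. Their longest transcripts are 64.8% identical over 583 aligned bases and share no word of 75 bases.

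*Defb19*, a beta-defensin gene at chr2:152401822-152406048 (mm9), was at 9.46 and 3.74 FPKM in Aal, at 9.15, 13.8 and 85.4 in A1, and at 77.7, 64.6 and 43.4 in A3. Like *Cst12*, it had Aal-1 above A1-1. *Cldn11* encodes claudin-11, a tight junction protein of the blood-testis barrier, and lies at chr3:31048868-31063246 (mm9). It was at 2.15 and 1.23 FPKM in Aal, at 3.43, 3.27 and 22.0 in A1, and at 22.7, 14.1 and 12.0 in A3.

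None of the 10 genes overlaps another gene in the annotation used, and they lie on 7 chromosomes. Promoter sequence is shown for 4 of them whose levels moved together, with the letters of 4 short motifs in capitals. The motifs are the E-box CACGTG, the nuclear receptor half-site AAGGTCA, the SOX-type word AACAAT, and the GATA words AGATAA and AGATAG as well as TGATAA and TGATAG, each searched on both strands. Each sequence is the 250 bases before the RefSeq start on the strand of the gene, in GRCm38.p6 coordinates, which are not those of mm9: *Fshr* is at chr17:89200676-89200925 (minus strand), *Amhr2* at chr15:102445117-102445366 (plus), *Cst9* at chr2:148834897-148835146 (plus) and *Cst12* at chr2:148789115-148789364 (plus).
Fshr: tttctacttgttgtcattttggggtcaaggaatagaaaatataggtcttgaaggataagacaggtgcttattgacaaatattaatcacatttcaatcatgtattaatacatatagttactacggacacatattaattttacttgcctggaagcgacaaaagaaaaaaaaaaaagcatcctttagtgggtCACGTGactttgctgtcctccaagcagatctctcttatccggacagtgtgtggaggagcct
Amhr2: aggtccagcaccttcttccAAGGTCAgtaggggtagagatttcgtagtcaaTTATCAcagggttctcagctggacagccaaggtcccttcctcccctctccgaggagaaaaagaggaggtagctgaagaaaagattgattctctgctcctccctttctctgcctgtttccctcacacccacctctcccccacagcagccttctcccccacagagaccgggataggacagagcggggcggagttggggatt
Cst9: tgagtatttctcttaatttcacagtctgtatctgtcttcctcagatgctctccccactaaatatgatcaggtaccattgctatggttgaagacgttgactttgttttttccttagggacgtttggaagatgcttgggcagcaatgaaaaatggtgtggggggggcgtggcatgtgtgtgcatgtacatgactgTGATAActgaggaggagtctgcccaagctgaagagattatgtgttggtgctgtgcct
Cst12: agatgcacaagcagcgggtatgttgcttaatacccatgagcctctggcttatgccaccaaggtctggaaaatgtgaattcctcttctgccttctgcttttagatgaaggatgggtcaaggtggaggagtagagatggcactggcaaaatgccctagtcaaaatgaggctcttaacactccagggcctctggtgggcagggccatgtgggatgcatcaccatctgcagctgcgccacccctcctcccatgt

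A RefSeq promoter was matched for 7 of the 10 genes. GATA words were in 3 of the 7 (*Amhr2*, *Cst9* and *Shbg*), against 26.5% of 32851 promoter windows of this length. AAGGTCA was in 1 (*Amhr2*), against 4.08%, CACGTG in 1 (*Fshr*), against 6.02%, and AACAAT in 0, against 9.42%. No motif was in all 7, and the neighbors *Cst9* and *Cst12* did not share one. A match is only a run of letters in this window.

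The question for A1 against Aal is whether Sertoli transcripts already differed at the first differentiating stage. With all libraries, the fold of mean FPKM in A1 over Aal ran from 3.18 for *Dhh* to 9.36 for *Fshr*. In A1 the SD was larger than the mean for each of the 10 genes, with A1-3 far above the others: the mean of *Clu* was 94.4 ± 109 FPKM (SD, n = 3), and that of the Aal libraries 19.9 ± 4.04 FPKM (SD, n = 2). Every A1 library was above every Aal library for 8 of the 10 genes, against 34.6% of 4632 genes tested. The exceptions were *Cst12* and *Defb19*. *Fshr* and *Dhh* are among the 8 but did not pass the low-value filter, so they are not among the 4632. Called higher in A1 by limma on log2(FPKM + 1), at an adjusted p of at most 0.01 and a log2 fold change above 1, were 4.19% of all genes tested (4.97% were lower, 9.15% changed in either direction) and 0 of the 8 Sertoli transcripts that passed the low-value filter. At an unadjusted p below 0.05 limma gave 1 of the 8, and limma voom on recovered reads called 0 of them and 731 of all genes. Without A1-3, the mean of A1-1 and A1-2 over the Aal mean was 1.28-fold for *Dhh*, 1.58-fold for *Clu* and 2.53-fold for *Shbg*, the highest of the 10. Both of these libraries were still above both Aal libraries for 8 of 10 genes. Among the 8 tested, 6 did so, where 39.1% of all tested genes did the same. Limma then called 0 of 8 tested, against 4.36% of genes called higher and 5.33% lower. At an unadjusted p below 0.05 limma gave 8 of the 8, a looser threshold for which the share of all genes is not given.

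For A3 against A1, the values differ with and without A1-3. With it, the fold of mean FPKM ran from 1.06 for *Rhox8* to 2.04 for *Fshr*, and no gene had every A3 library above every A1 library, against 18.0% of 4590 genes tested. None of the 10 was called by limma or by limma voom and none had an unadjusted p below 0.05. Limma called 0.479% of all genes higher in A3, 1.02% lower and 1.5% in either direction, and limma voom called 199 of all genes. Without A1-3 all 10 had every A3 library above both A1 libraries, against 24.9% of 4531 genes, and 8 were called higher, against 1.35% of genes (1.1% were lower). The 2 not called were *Fshr* and *Dhh*, with log2 differences of 0.89 and 0.79 on the log2(FPKM + 1) scale, which understates change at low FPKM. Both were below 1 FPKM in A1-1 and A1-2 and passed the low-value filter there only through A3. The others ran from 1.31 for *Rhox8* to 2.36 for *Cst12*. As folds of FPKM, the A3 mean over the mean of A1-1 and A1-2 was 2.70 for *Dhh*, 3.298 for *Rhox8*, from 4.83 to 6.02 for *Cst9*, *Cldn11*, *Amhr2*, *Clu*, *Shbg*, *Defb19* and *Cst12*, and 7.55 for *Fshr*. Even the lowest A3 library exceeded the higher of A1-1 and A1-2 by 2.07-fold for *Dhh* and 4.69-fold for *Fshr*.

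The net difference of A3 from Aal does not use A1-3. Every A3 library was above every Aal library for all 10 genes, against 38.9% of 4687 genes tested, and 9 of the 10 were called higher, against 7.87% of genes (9.69% were lower, 17.6% changed in either direction). *Dhh* had a log2 difference of 0.94 and was not called. *Fshr* and *Dhh* were below 1 FPKM in both Aal libraries. They passed the low-value filter only through A3, so neither could have been called lower. The mean of *Clu* was 8.25-fold higher, at 164 ± 53.0 FPKM (SD, n = 3), than its Aal mean given above. *Shbg* averaged 13.8 ± 5.52 against 1.01 ± 0.150 FPKM, which is 13.7-fold, and *Cst12* 43.5 ± 18.4 against 3.91 ± 3.16 FPKM, which is 11.1-fold. At the low end, *Rhox8* averaged 6.21 ± 1.28 against 1.15 ± 0.413 FPKM, or 5.40-fold, and *Dhh* 2.10 ± 0.415 against 0.608 ± 0.0171 FPKM, or 3.45-fold. The comparison with A1 and that with Aal share the A3 libraries, so their values are not separate evidence.

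Within A1, the excess of A1-3 over the mean of A1-1 and A1-2 was similar for the 10 genes, between 5.47-fold for *Dhh* and 9.12-fold for *Fshr* with a median of 7.17-fold. Of 4445 genes with a mean of at least 1 FPKM, 58 (1.3%) exceeded 4-fold in A1-3, and the median ratio of all 4445 was 1.00. All 9 Sertoli transcripts at that mean were among the 58, which is a description only, since the genes were chosen on these values. *Dhh* was below 1 FPKM in Aal, A1-1 and A1-2 and reached that mean only through A1-3 and A3. Counting error alone gave *Fshr* an interval of 5.17 to 16.0 for A1-3 over both libraries pooled, and *Clu* one of 6.72 to 7.34.

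**Figure D2:**
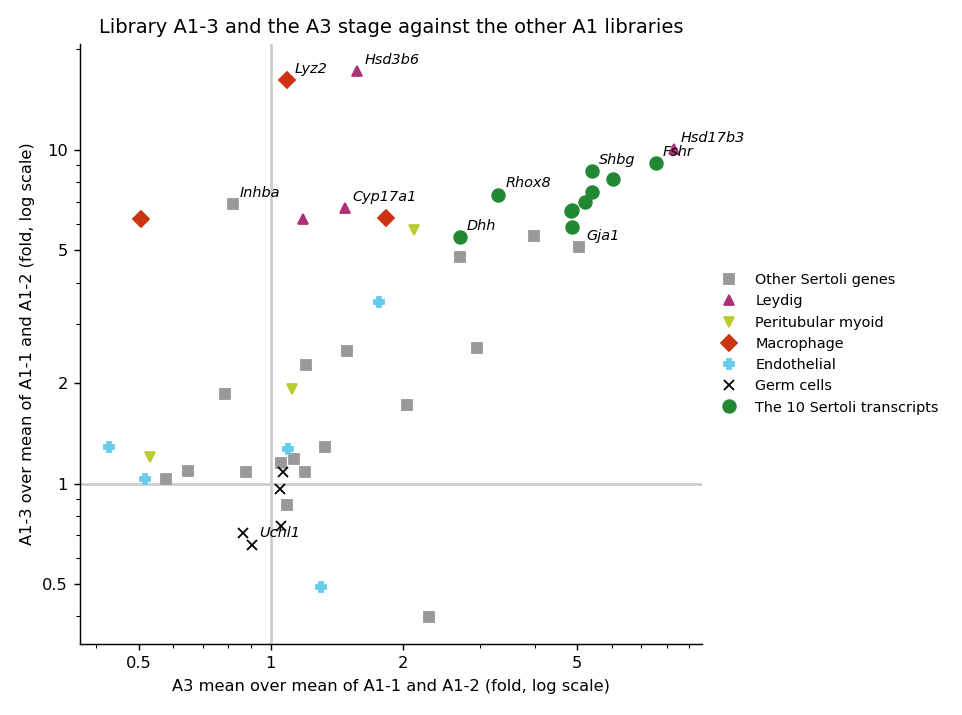
Fold of A1-3 (vertical, log scale) and fold of the A3 mean (horizontal, log scale), both over the mean of A1-1 and A1-2, for the 10 Sertoli transcripts and for genes of other cell type lists; each point is a gene. The 10 lie high on both axes, from 5.47 to 9.12 on the vertical and from 2.70 to 7.55 on the horizontal. *Cyp17a1* and *Lyz2* are at 6.68 and 16.2 on the vertical axis and at 1.48 and 1.09 on the horizontal. Other genes are also high on both axes: the Leydig gene *Hsd17b3* is at 10.1 and 8.28, and *Gja1* is at 5.12 and 5.05.

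The make-up of the sum changed far less than the sum. While the sum differed between 29.6 and 488.6 FPKM, the share of *Clu* stayed between 43.2% in A1-2 and 57.8% in Aal-2, that of *Cldn11* between 4.04% and 5.10%, and that of *Amhr2* between 3.88% and 5.05%. *Defb19* held from 12.6% to 19.7% and *Cst9* from 6.48% to 10.4%. A1-3 lay inside the range of the other libraries for all genes but *Amhr2* and *Shbg*: its share of *Clu* was 45.1%, against 47.0% in A3-1 and 43.2% in A1-2. *Shbg* reached its highest share, 4.52%, and *Amhr2* its lowest in A1-3.

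**Figure D3:**
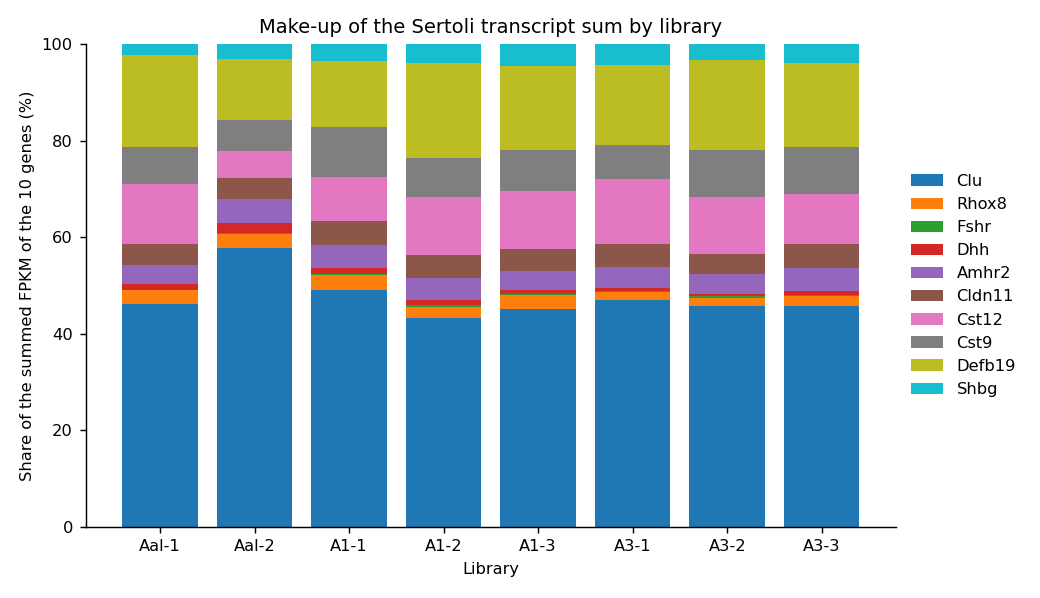
Share of each of the 10 Sertoli transcripts in their summed FPKM, in percent, for each of the 8 libraries. *Clu* makes up between 43.2% and 57.8% of every bar, although the sums behind the bars differ between 29.6 FPKM in Aal-2 and 488.6 FPKM in A1-3.

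A few genes departed from constant shares. *Dhh* held 1.204% and 2.096% of the sum in Aal, 1.23%, 1.04% and 0.869% in A1, and 0.543%, 0.580% and 0.688% in A3, so all A3 libraries were below all others. *Rhox8* likewise held 2.91% and 2.90% in Aal, 3.12%, 2.39% and 2.83% in A1, and only 1.64%, 1.65% and 2.09% in A3. A1-3 was above all A3 libraries for both. Read against A3-1, which had almost the same *Clu*, A1-3 had 1.81-fold more *Rhox8* (95% interval 1.495 to 2.19, counting error only) and 1.67-fold more *Dhh* (1.40 to 2.00), whereas *Cldn11* gave 0.971-fold (0.878 to 1.07) and *Amhr2* 0.928-fold (0.835 to 1.03). *Cst9* lay between, at 1.26-fold (1.11 to 1.44). *Fshr* went the other way, from 0.142% and 0.171% of the sum in Aal to 0.273%, 0.375% and 0.349% in A3, but on 3 and 4 reads in Aal. As a ratio, *Cst12* had the widest share within a group, with 12.4% in Aal-1 and 5.67% in Aal-2.

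After the mean of each group was removed, the 10 genes moved together across the libraries. Pearson's r of these deviations on the log2(FPKM + 1) scale, over 8 libraries and 45 pairs, ran from 0.903 to 0.997 with a median of 0.966. This is a description of likeness and rests largely on A1-3: without it, over 7 libraries, r ran from 0.398 to 0.981 with a median of 0.758. Within A3 the common order was A3-1 over A3-3, by 1.34-fold for *Cst9* to 2.40-fold for *Cst12*. Within Aal it was Aal-1 over Aal-2 for 9 of the 10 genes, while A1-1 over A1-2 was close to even with a median of 1.01.

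The same measure was used to find the genes outside the 10 whose deviations were most like their mean. Of 3876 genes with a mean of at least 2 FPKM, 111 had an r above 0.9 and the median gene had an r of 0.0151. The 8 most alike were *Sparc*, *Mmd2*, *Fndc5*, *Basp1*, *Gja1*, *Timp3*, *Cmtm3* and *Cpe*, with r from 0.995 to 1.00 over the 8 libraries and from 0.944 to 1.00 without A1-3. *Sparc*, a secreted matrix glycoprotein, was the closest. It was at 8.98 and 5.38 FPKM in Aal, at 9.63, 9.98 and 75.2 in A1, and at 48.9, 34.7 and 25.1 in A3. *Cpe*, a carboxypeptidase that trims peptide hormones, was at 3.18 and 1.51 FPKM in Aal, at 3.60, 3.15 and 25.5 in A1, and at 23.2, 17.3 and 11.4 in A3. Both show the low and high sets seen for the 10 genes. *Timp3*, a tissue inhibitor of metalloproteinases, had the smallest A1-3 excess of the 8, at 3.03-fold.

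A wider list of 50 Sertoli genes outside the 10 had 18 in the table, and it did not move as one. In A3 against Aal, limma called 4 of 15 tested higher and 3 lower, against 7.87% and 9.69% of all genes tested, with a median log2 fold change of 0.24 against 0.05 over all genes tested. The 4 higher were *Gja1*, the gap junction gene connexin 43 (log2 fold change 1.65, SE 0.18, limma adjusted p 0.000149), *Inhbb*, an inhibin and activin subunit (1.42, SE 0.17, limma adjusted p 0.00023), *Drd4*, a dopamine receptor (1.37, SE 0.20, limma adjusted p 0.000527), and *Kitl*, the ligand of the KIT receptor of differentiating spermatogonia (1.02, SE 0.18, limma adjusted p 0.00163). *Inhbb* was at 0.739 and 0.318 FPKM in Aal, at 0.770, 0.774 and 4.25 in A1, and at 3.32, 3.38 and 2.502 in A3. *Kitl* was at 0.645 and 0.613 FPKM in Aal, at 0.747, 1.01 and 4.18 in A1, and at 3.08, 2.34 and 1.68 in A3. Both had A1-3 above every A3 library, as 7 of the 10 genes had. *Inhbb*, *Kitl* and *Drd4* (0.310 and 0.209 FPKM in Aal) were below 1 FPKM in both Aal libraries. They passed the low-value filter only through A3, so they could not have been called lower.

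The 3 lower in A3 were *Trf*, *Ocln* and *Abca1*. *Trf*, the iron carrier transferrin, fell from 11.03 and 13.3 FPKM in Aal to 3.101, 3.24 and 3.50 in A3 (log2 fold change -1.62, SE 0.13, limma adjusted p 3.57e-05), and it was at 2.01, 1.19 and 2.75 FPKM in A1. *Ocln*, the tight junction protein occludin, fell by 1.34 on the log2 scale (limma adjusted p 0.000322) and *Abca1*, a cholesterol exporter, by 1.25 (limma adjusted p 1.36e-05). A1-3 did not stand apart for *Ocln* or *Abca1*, at 1.03-fold and 1.08-fold of the other A1 libraries. In A1 against Aal limma called 0 of 13 tested higher and 2 lower, *Trf* and *Abca1*, against 4.19% and 4.97% of all genes. Without A1-3 it called 0 of 12 higher and the same 2 lower, against 4.36% and 5.33%, with 8 of the 12 at an unadjusted p below 0.05 in either direction. With A1-3, 2 were higher at an unadjusted p below 0.05, and limma voom called the same number of genes as limma. In A3 against A1 limma and limma voom called 0 of 13, with 6 at an unadjusted p below 0.05, where 1.5% of all genes were called in either direction. Without A1-3, limma called 2 of 13 higher and 0 lower, against 1.35% and 1.1% of all genes. They were *Gja1* (log2 fold change 1.79, limma adjusted p 0.00157) and *Inhbb* (1.19, limma adjusted p 0.00278). *Inhbb* was below 1 FPKM in A1-1 and A1-2 and passed the low-value filter there only through A3.

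Other genes of the FSH, anti-Müllerian hormone and desert hedgehog pathways, beside the receptors and the ligand above, gave no limma call at the thresholds used. Of 25 listed genes 9 were in the table, and limma called 0 of 8 tested in each comparison, while at an unadjusted p below 0.05 there were 1 in A1 against Aal, 4 in A3 against A1 and 5 in A3 against Aal, and limma voom called 0, 0 and 1. Of all genes tested, 9.15%, 1.5% and 17.6% were called in these comparisons, so 0 of 8 is close to the share of all genes in the first 2. Without A1-3 limma again called 0 of 8 against Aal and against A3, with 1 and 3 at an unadjusted p below 0.05. None of the 9 exceeded 2-fold in A1-3. *Bmpr1a*, a type I receptor that can pair with AMHR2, was between 27.2 FPKM in Aal-2 and 37.1 FPKM in A3-2. *Smo*, the hedgehog signal transducer, was at 12.6 and 20.2 FPKM in Aal, at 24.2, 12.0 and 11.4 in A1, and at 30.2, 31.02 and 35.1 in A3, with A1-3 the lowest library. *Gnas*, the G protein subunit downstream of the FSH receptor and of many others, was at 14.7 FPKM in A1-3 and between 6.88 and 9.74 FPKM elsewhere.

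The summed Leydig, macrophage and peritubular myoid markers were highest in A1-3 and were lower in A3. The 4 Leydig genes in the table, of 9 listed, summed to 10.3 FPKM in A1-3, against 1.05 to 1.58 in the other A1 libraries, 1.70 to 2.37 in Aal and 2.51 to 3.67 in A3. All 4 exceeded 2-fold in A1-3. *Cyp17a1*, an enzyme of androgen synthesis, was at 5.20 FPKM in A1-3 and at 0.946 to 1.34 FPKM in A3. *Hsd17b3*, which makes testosterone, differed from the other 3 in being raised in A3 too, at 0.739, 1.77 and 1.26 FPKM against 0.290 and 0.0619 in Aal. The 3 macrophage genes in the table, of 10 listed, summed to 10.5 FPKM in A1-3, against 0.623 to 1.099 in the other A1 libraries, 0.534 to 0.673 in Aal and 0.459 to 1.63 in A3. *Lyz2*, macrophage lysozyme, made most of it at 8.28 FPKM.

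The 3 peritubular myoid genes in the table, of 7 listed, summed to 6.53 FPKM in A1-3. Their sum was 2.41 to 2.61 FPKM in the other A1 libraries, 1.56 to 2.22 in Aal and 2.41 to 3.36 in A3. Only 1 of the 3 exceeded 2-fold in A1-3. It was *Acta2*, smooth muscle actin, at 3.91 FPKM in A1-3, or 5.76-fold of the mean of the other A1 libraries. *Myh11* was at 1.92-fold and *Des* was lower still, so the myoid genes did not move as one. The sum of the 5 endothelial genes in the table, of 8 listed, took another course. It was highest in Aal, at 7.90 and 9.07 FPKM, and it was 6.62 FPKM in A1-3, 5.21 to 5.39 in the other A1 libraries and 3.1005 to 3.55 in A3. *Cdh5*, the endothelial cadherin, was the highest gene, and the genes did not move as one. The A3 mean over the Aal mean was 0.245-fold for *Cdh5*, 0.287-fold for *Kdr* and 0.594-fold for *Tek*. It was 2.21-fold for *Esam* and 4.81-fold for *Tie1*, both below 1 FPKM in every library. No marker in the table was at 0 in any library, but neither was any other of the 5736 genes, so nothing is read from this. None of the 5 red blood cell genes was in the table. The summed germ cell list (5 of 14 genes) was 4639 FPKM in A1-3, the lowest of the 8 libraries, and 7924 FPKM in A1-1, the highest. The part of these other cells in the levels of the Sertoli transcripts was not tested.

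**Figure D4:**
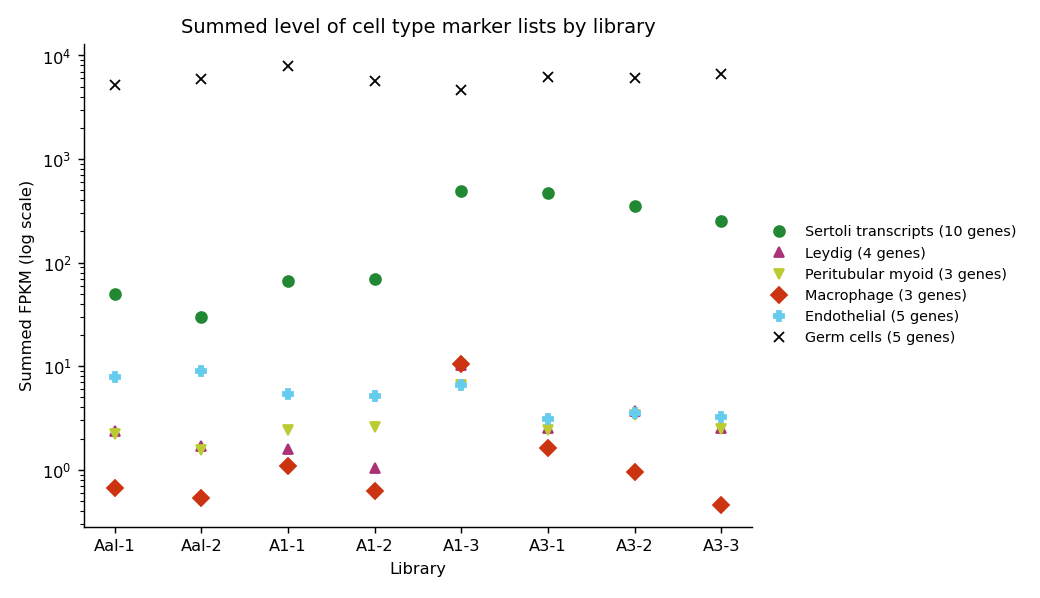
Summed FPKM (log scale) of the 10 Sertoli transcripts and of the measured genes of 5 other cell type lists in each of the 8 libraries; each point is the sum of a list in a library. A1-3 is the highest library for the Sertoli, Leydig, myoid and macrophage sums, and the A3 libraries are high for the Sertoli sum, at 249.7 to 467.5 FPKM, but at most 3.67 FPKM for the Leydig sum and 1.63 FPKM for the macrophage sum.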

How the data were processed

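RNA-seq of 8 libraries of sorted spermatogonia was analysed. Per the labels and the study's methods, the authors trimmed adapters with cutadapt 1.9, removed low-quality reads, aligned to mm9 with STAR 2.5.2b and counted genes with featureCounts. Libraries came from a stranded mRNA kit, and the annotation and strand setting of the counting are not given in the sources used here. The authors deposited FPKM values, 1 column per library, for the 5736 genes analysed.

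Whole reads and library totals were recovered from the FPKM steps (tolerance 0.02 reads, 100% of genes). For differences, limma 3.58.1 (R 4.3.3) was fitted to log2-transformed FPKM plus 1 (mean-variance trend, pairs of groups, genes with at least 1 FPKM in at least 2 libraries, Benjamini-Hochberg adjustment). Calls needed an adjusted p of at most 0.01 and a log2 fold change above 1 in size. The test and the read recovery were tested on simulated data. Intervals are 95% exact intervals for ratios of read counts and cover counting error only. The 10 genes and all lists were chosen with earlier results of these data known. Named beside the 10 were germ cell genes, called genes of the wider Sertoli list, the 8 genes most alike, pathway genes, and the leading genes of the other lists. Positions are from GENCODE M1 (mm9) and promoters from RefSeq (GRCm38.p6). Whether replicates came from separate animals is stated only as independent cell preparations, so p-values measure the spread between these libraries.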

Additional observations from a re-analysis of the deposited data

How the results depend on the processing

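Counts of calls moved with the settings while the order of the libraries came from the values themselves. With a pseudocount of 0.1 limma called 670 genes for A1 over Aal and 152 for A3 over A1, and with limma voom on recovered reads 731 and 199, in place of 424 and 69. Without 1 library the counts lay at 179 to 475 for the first contrast and at 26 to 111 for the second, and where 1 Aal library was left it was assumed to vary like the others. Sertoli transcripts called in A3 against A1 ran from 0 to 8 without 1 library, with 8 only without A1 replicate 3, where 111 of all genes were called. In A3 against Aal they ran from 8 to 10 without 1 A3 library, beside 795 to 878 of all genes. A fit on all 8 libraries called 7 of them in A3 against Aal, in place of 9, and 778 of all genes, in place of 823. Calls in the wider Sertoli list lay at 1 to 2 for the first contrast and at 0 to 2 for the second, and were 4 in A3 against Aal, in place of 7, in a fit on all 8 libraries. The median r between the 10 genes went from 0.966 to 0.758 without A1 replicate 3. The log2 difference of *Dhh* in A3 against A1 went from 0.27 to -0.00949 without A1 replicate 2 and to 0.79 without A1 replicate 3. The cause was not tested.

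The replicate block gave 39 calls for A3 over A1. For A3 over Aal it called 10 in place of 9 Sertoli transcripts, and 800 in place of 823 of all genes. It kept only replicate numbers found in both groups, so it dropped A3-3 in A3 over Aal. Leaving out A3-3 without a block also gave 10, with 795 of all genes called. Labels do not say that a number marks a shared litter or day. Same-numbered A1 and A3 libraries had correlations of deviations of -0.107, 0.0216 and -0.323. Such correlations over so few libraries cannot show whether a litter or day was shared, so this is not known. Median-ratio scaling left all counts within 1.5 times. Of the log2 differences of the 10 genes under other settings, 260 moved by less than the spread between replicates, 15 by more and 1 changed sign. That spread is the larger of the group SDs, and in A1 it includes A1-3, so large moves can fall among the 260. Without A1-3 the log2 difference of *Clu* went from 1.37 to 2.30 in A3 against A1, and from 1.57 to 0.65 in A1 against Aal. Both moves are among the 260. Depth limits *Fshr*, with 3 and 4 reads in Aal.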
